A study of Homo sapiens with 8 samples.

Results

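The phase II conjugation enzymes were taken as 36 named genes of a table of 60230 genes. They were 8 UDP-glucuronosyltransferases (UGT), 7 sulfotransferases (SULT), 12 soluble glutathione S-transferases (GST), 3 microsomal glutathione S-transferases (MGST), 4 acetyl- and methyltransferases and 2 epoxide hydrolases (EPHX). All 36 were chosen by their symbols, with earlier results of these data known, and all 36 were found in the table. RNA came from HepG2, a human liver cancer cell line, in a form that overexpresses the drug-metabolizing cytochrome P450 CYP2C19 under blasticidin selection. The cells received DMSO, the solvent control, or 1 of 3 plastic-related bisphenol antioxidants, each at its own IC50, for a day. The paper determined these IC50 values after a longer exposure, so they do not give the viability at the time of RNA extraction. Each group had 2 libraries, labelled day 1 and day 2 and called replicates 1 and 2 here. The column headers call replicate 1 of DMSO and replicate 1 of compound 4 merged, and no other library. What was merged is not stated, and its effect was not tested. Compound 4 is labelled metylcresol, compound 5 tetrabut and compound 6 cyclohexil. Compounds 4 and 6 join a pair of methylated phenol rings by a methylene bridge, with a tert-butyl group on each ring in compound 4 and a cyclohexyl group in its place in compound 6. Compound 5 has an ethylidene bridge, and its rings carry tert-butyl groups and no methyl group. Since each compound was given at its own IC50, their concentrations were close but not the same, and every group, DMSO included, carried the CYP2C19 transgene. DMSO-treated cells of the same line are the reference throughout, and 1 transgenic line of 1 tumour stands for the hepatocyte.

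Phase II enzymes attach a polar group to a drug, a hormone or a bile acid, or to the product of a phase I enzyme such as a cytochrome P450. UGTs add glucuronic acid from UDP-glucuronic acid, SULTs add sulfate from PAPS, GSTs add glutathione to electrophiles, and acetyl- and methyltransferases use acetyl-CoA and S-adenosylmethionine. Epoxide hydrolases open reactive epoxides with water. The liver is the main site of these reactions, and phenols are common substrates of UGTs and SULTs.

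The libraries held between 9791659 and 17814595 counted read pairs, with a median of 11108659. Expression is given in CPM, counts scaled to the depth of each library after normalization for composition, and 13400 genes passed the filter on low counts and were tested. Unless another test is named, p-values are from edgeR's quasi-likelihood test in 1 fit of all 8 libraries, adjusted by the Benjamini-Hochberg method over these 13400 genes, with 0.05 as the threshold. The labels give the libraries of a group different days, but do not say that they came from separate cultures. The p-values measure the spread between these libraries, differences between days included, which may be technical. The main fit had no block for the day. CYP2C19 lay between 16.4 and 52.8 CPM, counted per gene, so that RNA of the transgene and of the cells' own gene cannot be told apart. Its log2-fold change was 0.79 under compound 4 (adjusted p = 0.0858), 1.05 under compound 5 (adjusted p = 0.0395) and 0.04 under compound 6 (adjusted p = 0.951). All 10 hepatocyte markers were detected, with albumin between 14369 and 20660 CPM. The 10 markers summed to between 54856 and 59425 CPM in DMSO, 38440 and 46717 under compound 4, 47382 and 48504 under compound 5, and 41685 and 47997 under compound 6. APOA1, APOB, AFP and TF fell under compound 4, FGB rose under compound 5, and none of the 10 passed under compound 6. Of 11 blood, endothelial and stromal markers, PTPRC, CD3E, COL1A2 and DCN were at 0 in every library. The 11 summed to between 26.7 and 35.5 CPM in DMSO, 64.0 and 64.9 under compound 4, 28.4 and 38.4 under compound 5, and 45.8 and 46.2 under compound 6. CD68 and PDGFRB were the markers of these that rose under compound 4, and the part of these shifts in the results below was not tested. In bulk RNA, fewer cells that express a gene and less of its RNA per cell cannot be told apart.

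Of the 36 enzymes, 25 passed the filter, and the same 25 had a mean of at least 1 CPM in DMSO. Their levels in single libraries ran from 0.532 to 207 CPM. The other 11 were UGT1A9, UGT2B11, UGT2B15, SULT1B1, SULT1C2, SULT1E1, SULT2B1, GSTM1, GSTP1, NAT2 and NNMT. They had between 1 and 43 read pairs in all 8 libraries together, never more than 13 or 0.988 CPM in a library. GSTP1, the GST of many non-liver tumours, and NNMT, which methylates nicotinamide, had 1 read pair each. A count of 0 in a library allows up to 3 counts, or between 0.171 and 0.307 CPM depending on the library, which covers counting error only. UGT2B11, with 12 and 13 read pairs under compound 5, and SULT1C2, with 8 and 7 under compound 4, were above that limit in both libraries of these groups. Some others were above it in 1 library, such as SULT1B1 and UGT1A9 with 5 and 4 read pairs in replicate 1 of compound 6. The main fit computed no change for any of the 11, which were included in the alternative with no filter on low counts.

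In DMSO, 4 enzymes made up 66.5% of the summed CPM of the 36, and 6 made up 79.3%. Per kilobase of the principal transcript, which allows levels of different genes to be ordered, MGST1 led with 195 CPM per kilobase. GSTO1 followed with 140.1, SULT1A1 with 93.9, EPHX1 with 83.7, MGST2 with 56.9 and GSTK1 with 51.2. In that order the 2 DMSO libraries of SULT1A1 (89.6 and 98.3) and EPHX1 (80.1 and 87.4) did not overlap, and those of MGST2 (56.6 and 57.3) and GSTK1 (48.0 and 54.5) did not either. SULT1A1 shares sequence with related genes, as given below, so its place is uncertain. The UGTs were low, the highest being UGT2B7 with 5.74 CPM per kilobase and the lowest of those tested UGT1A6 with 0.458. GSTA1, the most abundant GST of normal human liver, had 3.78 CPM per kilobase. The 36 enzymes together summed to 1002 and 960.01 CPM in DMSO, 1133 and 864 under compound 4, 945 and 940.1 under compound 5, and 971 and 873 under compound 6. Both compound 5 libraries lay below both DMSO libraries, and the other groups overlapped them.

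**Figure D1:**
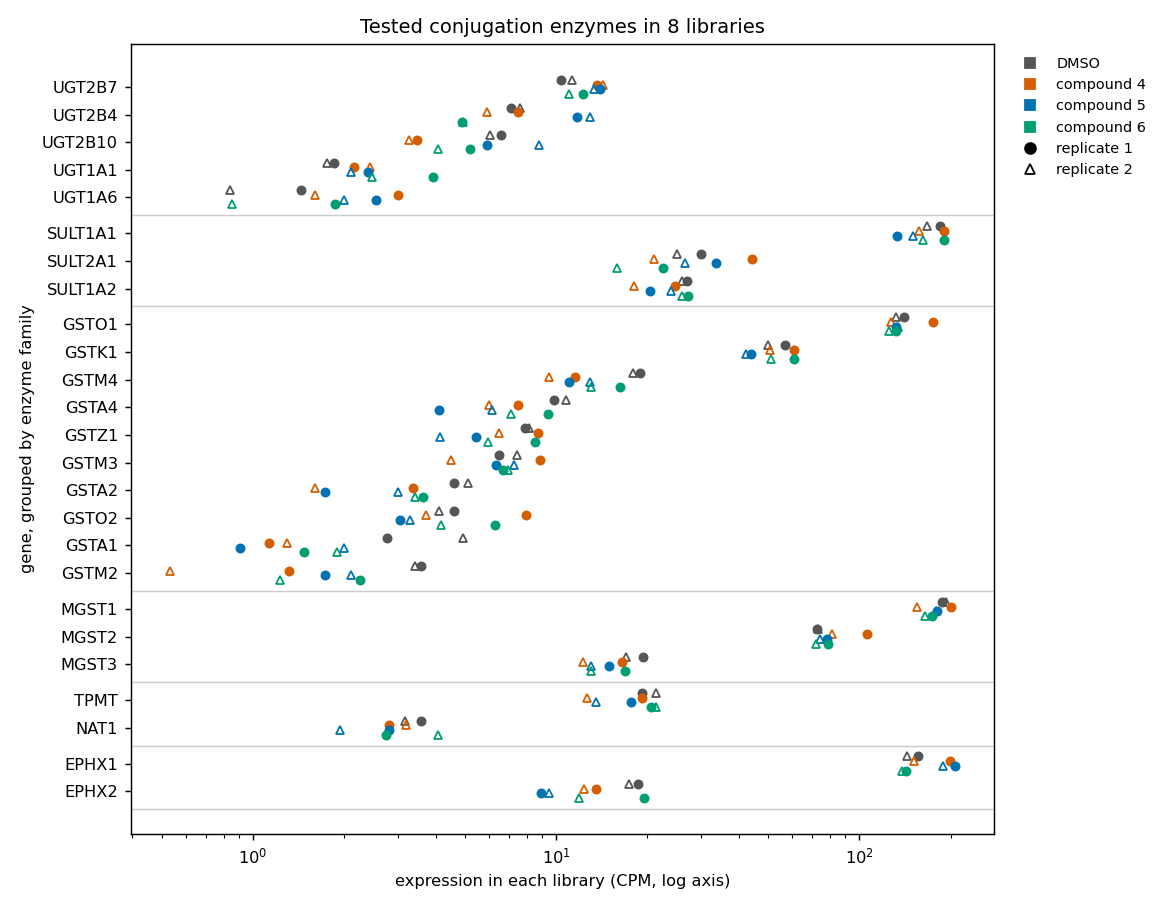
Expression of the 25 tested conjugation enzymes in each of 8 libraries, in CPM on a log axis, with enzymes grouped by family and ordered by their DMSO mean. Colours are groups, filled circles are replicate 1 and open triangles replicate 2. Most enzymes had 8 points close together. The points of GSTA1, GSTM2, GSTM4, GSTA4 and EPHX2 lay highest in DMSO, apart from 1 compound 6 library of EPHX2. Those of GSTA2 and MGST3, which did not pass the threshold, also lay highest in DMSO.

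Relative to DMSO, few conjugation enzymes passed the threshold. Compound 4 lowered GSTA1, GSTM2 and GSTM4 and raised none of the 25 tested (12.0% called, against 9.51% of all tested genes). Compound 5 raised UGT2B4 and lowered GSTA4 and EPHX2 (12.0% called, against 8.3% of all tested genes). Compound 6 changed 0 of 25 (0.575% of all tested genes), with 4 at an unadjusted p under 0.05, and DESeq2 also called 0. Both shares for compounds 4 and 5 were near their backgrounds. For the lower calls alone, 3 of 25 under compound 4 stood beside 3.91% of all tested genes, and 2 of 25 under compound 5 beside 2.95%. At an unadjusted p under 0.05, compound 4 had 9 enzymes (36.0%) against 27.5% of all genes, compound 5 had 10 (40.0%) against 28.4%, and compound 6 had 4 (16.0%) against 18.6%.

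Across the 25 enzymes the median log2-fold change for compounds 4, 5 and 6 stood at −0.10, −0.31 and −0.10, while that of all tested genes was 0.01, 0.00 and 0.02. Both compound 5 libraries lay below both DMSO libraries for 15 of the 25 enzymes (28.5% of all tested genes) and above for 6 (31%). For compound 4 the counts were 10 below (28%) and 4 above (30.4%), and for compound 6 they were 11 below (26%) and 1 above (29.3%). The 3 comparisons share the DMSO libraries. With the replicate number as a block, compound 5 changed 5 enzymes, adding EPHX1 and GSTA1. Without either DMSO library, or without replicate 2 of compound 4 or replicate 1 of compound 5, the calls for that compound were lost. Each of these fits without a library leaves 1 library in a group. The share of all tested genes called in these alternative fits was not computed, so the gain or loss of calls is not a result about these enzymes.

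**Figure D2:**
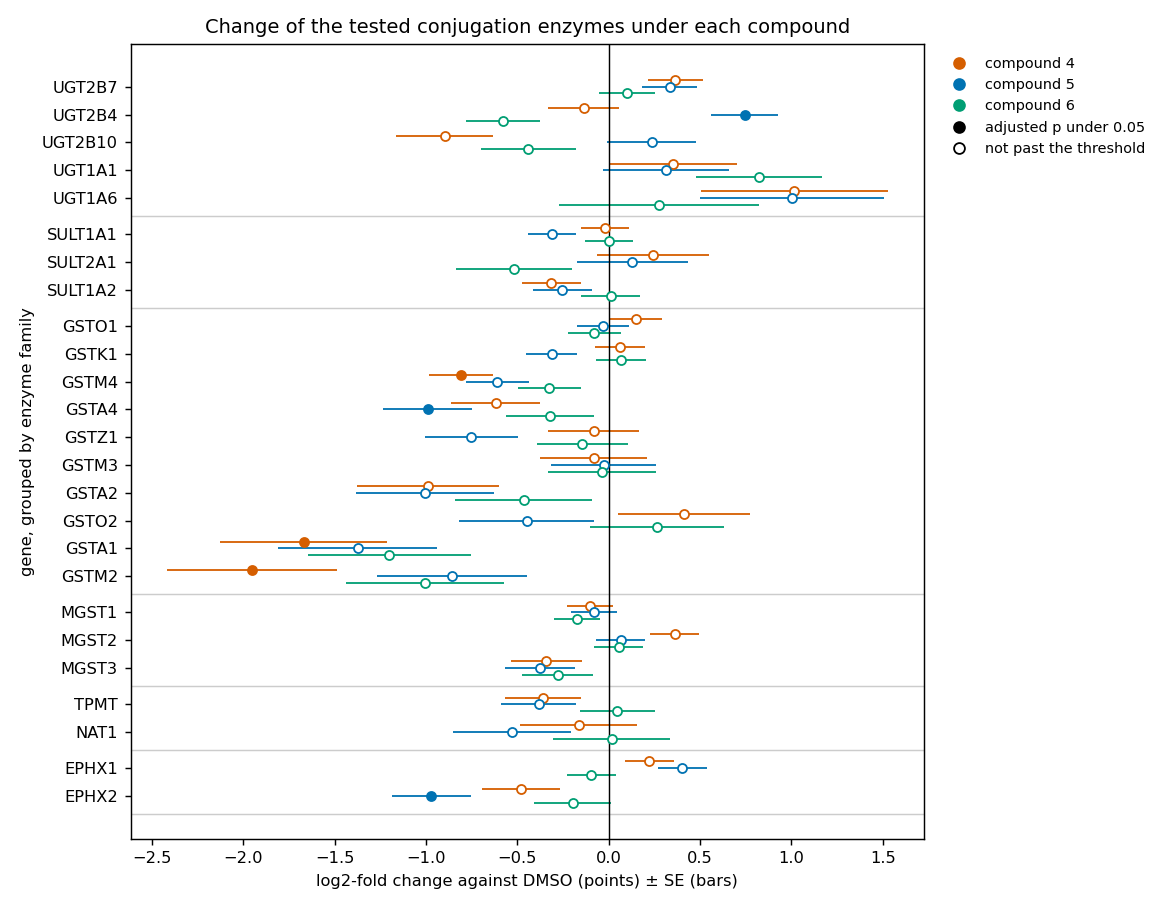
Log2-fold change of the 25 tested conjugation enzymes against DMSO for compounds 4, 5 and 6, with bars of ± 1 SE from the fit of all 8 libraries. Filled points passed an adjusted p of 0.05, which was the case for GSTA1, GSTM2 and GSTM4 under compound 4 and for UGT2B4, GSTA4 and EPHX2 under compound 5. All 10 GSTs lay below 0 under compound 5.

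Of the soluble GSTs, which were the family with the most calls, 10 of 12 were tested. The median over these 10 was −0.35 for compound 4, with 7 of 10 below 0. It was −0.68 under compound 5, with 10 of 10 below 0, and −0.23 under compound 6, with 8 of 10 below 0. Compound 4 lowered 3 of the 10, compound 5 lowered 1, and no GST rose, beside lower calls for 3.91% and 2.95% of all tested genes under compounds 4 and 5. Of all tested genes, 51.4%, 50.4% and 52.7% had a log2-fold change above 0 under compounds 4, 5 and 6.

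GSTA1 (ENSG00000243955, chromosome 6, 52791664 to 52803910, minus strand, GRCh38) encodes an alpha-class GST that conjugates many drugs and reduces lipid peroxides. It had 2.77 and 4.94 CPM in the 2 DMSO libraries, 1.13 and 1.29 under compound 4, 0.906 and 1.99 under compound 5, and 1.47 and 1.89 under compound 6. All 6 treated libraries lay below both DMSO libraries. Compound 4 lowered GSTA1 to a log2-fold change of −1.67 ± 0.46 (SE, n = 2 per group, adjusted p = 0.0496), 3.18-fold lower than DMSO. The log2-fold change was −1.37 ± 0.43 under compound 5 (adjusted p = 0.078, and 0.0418 with the replicate block) and −1.20 ± 0.45 under compound 6 (adjusted p = 0.193). The compound 4 call was lost with DESeq2 (adjusted p = 0.0568) and when replicate 1 or 2 of DMSO, compound 4 or compound 6 was left out, up to an adjusted p of 0.356 without replicate 2 of DMSO, where the log2-fold change was −1.18. The compound 5 value was −2.08 without replicate 2 of compound 5 (adjusted p = 0.0418) and −0.89 without replicate 2 of DMSO (adjusted p = 0.428).

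GSTA2, its neighbour on chromosome 6 and nearly the same protein, was not past the threshold, and its log2-fold changes in compounds 4, 5 and 6 were −0.99, −1.01 and −0.47. Of the 31-base stretches in GSTA1 transcripts, 52.6% occurred in no other gene, and 36.0% were shared with GSTA2, so reads could be split between the pair and the separate values are uncertain. Summed over GSTA1, GSTA2, GSTA3 and GSTA5, the level was 8.71 ± 1.89 CPM in DMSO (SD, n = 2) and 3.70 ± 1.14 under compound 4. The summed log2-fold change was −1.25 under compound 4 (adjusted p = 0.0452), −1.16 under compound 5 (adjusted p = 0.0557) and −0.75 under compound 6 (adjusted p = 0.26). The direction and the call of compound 4 were the same for the sum as for GSTA1 alone.

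The stretch upstream of the start is shown for this pair because both had a negative log2-fold change under each compound and their promoters were nearly the same. The windows run from 250 to 101 bases before the start, 5′ to 3′ on the gene's strand, from RefSeq on GRCh38.p14. Capitals mark the reverse complement of GTTAAT, a half-site of the liver factor HNF1, at 180 to 175 bases before the start in both. GSTA1 is at chr6:52803917-52804066 (minus strand) and GSTA2 at chr6:52763576-52763725 (minus strand).
GSTA1: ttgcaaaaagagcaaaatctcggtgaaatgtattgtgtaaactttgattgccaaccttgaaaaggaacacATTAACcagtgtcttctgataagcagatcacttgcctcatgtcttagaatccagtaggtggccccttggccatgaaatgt
GSTA2: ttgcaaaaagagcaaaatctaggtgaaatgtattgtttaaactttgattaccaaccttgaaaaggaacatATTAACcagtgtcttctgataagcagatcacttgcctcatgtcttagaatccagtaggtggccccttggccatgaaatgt
The 2 windows were 97.3% identical without gaps, with 4 of 150 bases different. GTTAAT was searched on both strands in the 250 bases before the start. It was found in a promoter entry of 6 of the 28 enzymes that had entries, and in 6.23% of 35116 single entries. An enzyme could have several entries, so the shares are not of like units. The letters are a description of the window, and no binding was measured.

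GSTM2 (ENSG00000213366, chromosome 1, 109668022 to 109709551, plus strand) and GSTM4 (ENSG00000168765, chromosome 1, 109656081 to 109674836, plus strand) are mu-class GSTs of 1 cluster, which conjugate aromatic electrophiles and epoxides. GSTM2 had 3.59 and 3.43 CPM in DMSO, 1.31 and 0.532 under compound 4, 1.73 and 2.11 under compound 5, and 2.26 and 1.23 under compound 6. GSTM4 was higher, with 18.9 and 17.9 CPM in DMSO, 11.5 and 9.50 under compound 4, 11.0 and 13.0 under compound 5, and 16.3 and 13.1 under compound 6. For both, every treated library lay below both DMSO libraries, and the lowest library was replicate 2 of compound 4.

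Compound 4 lowered GSTM2 by a log2-fold change of −1.95 ± 0.47 (adjusted p = 0.0308, 3.87-fold lower) and GSTM4 by −0.81 ± 0.18 (adjusted p = 0.0234, 1.75-fold lower). The GSTM2 value rests on few read pairs, 35 and 41 in DMSO and 14 and 7 under compound 4. GSTM2 was therefore left out of the alternative with at least 10 counts in every library. Under compound 5 the values were −0.86 ± 0.41 (adjusted p = 0.201) and −0.61 ± 0.17 (adjusted p = 0.0583). Under compound 6 they were −1.01 ± 0.43 (adjusted p = 0.256) and −0.32 ± 0.17 (adjusted p = 0.35). Neither compound 5 nor compound 6 passed the threshold for these genes. The GSTM2 value under compound 4 was −2.71 without replicate 1 of compound 4 (adjusted p = 0.0318). Without replicate 2 of compound 4, GSTM2 had a log2-fold change of −1.41 (adjusted p = 0.192) and GSTM4 of −0.67 (adjusted p = 0.159), and both calls were also lost without either DMSO library.

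The exons of GSTM2 and GSTM4 overlap on the same strand in GENCODE 29, and 80.5% of the 31-base stretches of GSTM2 and 77.1% of those of GSTM4 occurred in no other gene, so their separate values are uncertain. Summed over GSTM1, GSTM2, GSTM4 and GSTM5, the level was 22.1 ± 0.666 CPM in DMSO, 11.4 ± 1.99 under compound 4, 14.1 ± 1.74 under compound 5 and 16.5 ± 3.06 under compound 6 (SD, n = 2). The summed log2-fold change under compound 4 was −0.95 (adjusted p = 0.0159). It was −0.64 under compound 5 (adjusted p = 0.0566) and −0.42 under compound 6 (adjusted p = 0.257). GSTM3, from the same cluster but the other strand, had log2-fold changes close to 0, at −0.08, −0.03 and −0.04 (adjusted p of 0.879, 0.957 and 0.963).

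The upstream stretches of this second pair are shown because both genes fell under compound 4 while their sequences differ. Both windows run from 200 to 51 bases before the start on the plus strand of GRCh38.p14 (RefSeq), GSTM2 at chr1:109667857-109668006 and GSTM4 at chr1:109655899-109656048. Capitals mark the reverse complement of GCGTG, the core of the xenobiotic response element bound by AHR, at 93 to 89 bases before the start of GSTM4.
GSTM2: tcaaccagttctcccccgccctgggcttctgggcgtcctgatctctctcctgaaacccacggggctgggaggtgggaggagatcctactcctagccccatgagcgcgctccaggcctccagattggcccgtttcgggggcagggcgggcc
GSTM4: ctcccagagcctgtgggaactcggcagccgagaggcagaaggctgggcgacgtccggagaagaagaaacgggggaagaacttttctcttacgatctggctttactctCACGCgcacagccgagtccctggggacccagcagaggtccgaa
Without gaps 27.3% of the 150 bases were the same. GCGTG was found on either strand in a promoter entry of 9 of the 28 enzymes and in 32.2% of all 35116 single entries. These units differ, as they did for GTTAAT. None of the 3 motifs searched here was in the GSTM2 window shown.

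GSTA4 (ENSG00000170899, chromosome 6, 52977948 to 52995378, minus strand) clears hydroxynonenal, an aldehyde from lipid peroxidation. It had 9.84 and 10.8 CPM in DMSO, 7.51 and 6.01 under compound 4, 4.12 and 6.15 under compound 5, and 9.42 and 7.11 under compound 6. All treated libraries lay below both DMSO libraries, those of compound 5 the lowest on average. Compound 5 lowered GSTA4 with a log2-fold change of −0.99 ± 0.24 (adjusted p = 0.0386, 1.99-fold lower). Compounds 4 and 6 gave −0.62 ± 0.24 (adjusted p = 0.137) and −0.32 ± 0.24 (adjusted p = 0.507). The call was lost in a fit of only the 4 libraries compared (adjusted p = 0.057), and without replicate 1 of compound 5, where the log2-fold change was −0.76 (adjusted p = 0.205), or without either DMSO library (adjusted p = 0.124 and 0.203). Unlike GSTA1, GSTA4 shares little sequence, with 99.6% of its 31-base stretches in no other gene.

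The remaining soluble GSTs did not pass the threshold. GSTO1, an omega-class enzyme that reduces dehydroascorbate, was the most abundant. It had 140.2 and 132 CPM in DMSO, 175 and 127 under compound 4, 132 and 134 under compound 5, and 132 and 125 under compound 6. Its groups overlapped, apart from replicate 1 of compound 4 that stood above the rest, and its log2-fold changes were 0.15, −0.03 and −0.08 (SE 0.14 each). GSTZ1, which also acts in tyrosine breakdown, had log2-fold changes of −0.08, −0.75 (adjusted p = 0.0926) and −0.14, and its exons overlap those of POMT2 on the opposite strand. GSTK1 of mitochondria and peroxisomes ranged from 42.2 to 60.8 CPM, with 0.06, −0.31 and 0.07. GSTO2 ranged from 3.05 to 7.98 CPM, with 0.41, −0.45 and 0.26.

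Of the 3 microsomal enzymes, all were tested and none passed the threshold, beside 9.51%, 8.3% and 0.575% of all tested genes under compounds 4, 5 and 6. With 3 genes, the absence of calls is not a result about the family. MGST1, a membrane enzyme that conjugates and reduces lipid peroxides, had 188 and 193 CPM in DMSO, 201 and 155 under compound 4, 180.5 and 179 under compound 5, and 173 and 164 under compound 6. Compounds 5 and 6 lay below both DMSO libraries and compound 4 on both sides of them. Its log2-fold changes were −0.10, −0.08 and −0.17 (SE 0.13 each, adjusted p of 0.642, 0.694 and 0.492), with 95% intervals of −0.39 to 0.18, −0.36 to 0.20 and −0.46 to 0.11. MGST2, which also makes leukotrienes, had log2-fold changes of 0.36 (adjusted p = 0.118), 0.07 and 0.05, and MGST3 had −0.34, −0.38 and −0.28 (adjusted p of 0.286, 0.222 and 0.476).

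Among the UGTs, 5 of 8 were tested, compound 5 raised 1, and compounds 4 and 6 changed 0 of 5, where 9.51%, 8.3% and 0.575% of all tested genes were called under compounds 4, 5 and 6. The summed level of the 8 UGTs was 27.9 ± 0.593 CPM in DMSO and 38.9 ± 1.61 under compound 5 (SD, n = 2). It was 28.9 ± 1.67 under compound 4 and 26.1 ± 3.92 under compound 6. The log2-fold change under compound 5 was above 0 for all 5 tested UGTs, with a median of 0.33, and for 50.4% of all tested genes.

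UGT2B4 (ENSG00000156096, chromosome 4, 69480165 to 69526014, minus strand) conjugates bile acids and phenols. It had 7.07 and 7.62 CPM in DMSO, 7.51 and 5.93 under compound 4, 11.7 and 12.9 under compound 5, and 4.91 and 4.93 under compound 6. The compound 5 libraries were the highest and the compound 6 libraries the lowest, and neither overlapped another group. Compound 5 raised UGT2B4 with a log2-fold change of 0.74 ± 0.18 (adjusted p = 0.0397), a level 1.68-fold that of DMSO. The changes under compounds 4 and 6 were −0.14 ± 0.19 (adjusted p = 0.69) and −0.58 ± 0.20 (adjusted p = 0.173). The compound 5 call was lost with DESeq2 (adjusted p = 0.0975), in a fit of the 4 libraries alone (adjusted p = 0.0578), and without any library of DMSO, compound 5 or compound 6 (adjusted p between 0.0565 and 0.183). Summed over 7 UGT2B genes, the log2-fold change under compound 5 was 0.47 (adjusted p = 0.0499). Of the 31-base stretches of UGT2B4, 86.7% occurred in no other gene.

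UGT2B7, which conjugates steroids and morphine, was the most abundant UGT. It had 10.4 and 11.3 CPM in DMSO, 13.6 and 14.3 under compound 4, 14.0 and 13.4 under compound 5, and 12.3 and 11.0 under compound 6. Compounds 4 and 5 lay above both DMSO libraries and compound 6 overlapped them. The log2-fold changes were 0.36 ± 0.15 (adjusted p = 0.157), 0.33 ± 0.15 (adjusted p = 0.178) and 0.10 ± 0.16 (adjusted p = 0.768). With the 7 UGT2B genes summed, the value was −0.03 for compound 4 and −0.22 for compound 6. UGT2B10, which had the lowest value of the family under compound 4, had −0.90 (adjusted p = 0.062), 0.24 and −0.44.

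The UGT1A genes share their last exons, so their reads cannot be fully separated, and UGT1A1, the bilirubin enzyme, and UGT1A6, a phenol enzyme, ranged from 1.76 to 3.92 CPM and from 0.837 to 3.00 CPM. Their log2-fold changes against DMSO were above 0 under all 3 compounds, between 0.31 and 0.82 for UGT1A1 and between 0.27 and 1.02 for UGT1A6, with no adjusted p under the threshold. Summed over 9 genes of the locus, the log2-fold change was 0.94 (adjusted p = 0.133), 0.80 (adjusted p = 0.18) and 0.64 (adjusted p = 0.39) under compounds 4, 5 and 6. In these counts of a few CPM, changes of this size did not pass the test.

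Of the SULTs, 3 of 7 were tested and none passed the threshold under any compound, beside 9.51%, 8.3% and 0.575% of all tested genes under compounds 4, 5 and 6. With 3 genes, the absence of calls is not a result about the family. SULT1A1, the main phenol sulfotransferase of liver, had 184 and 168 CPM in DMSO, 189.6 and 157 under compound 4, 133 and 151 under compound 5, and 189.9 and 162 under compound 6. The compound 5 libraries were below both DMSO libraries, and the other groups overlapped them. Its log2-fold changes were −0.02 ± 0.13, −0.31 ± 0.13 (adjusted p = 0.16) and 0.00 ± 0.13. SULT1A2, a close copy, had −0.31, −0.25 and 0.01, and SULT2A1, which sulfates steroids and bile acids, had 0.24, 0.13 and −0.52 (adjusted p of 0.65, 0.809 and 0.409). Of the 31-base stretches, 76.9% of those of SULT1A1 and 65.5% of those of SULT1A2 occurred in no other gene, so their separate values are uncertain. Summed over SULT1A1 to SULT1A4, the level was 397 ± 6.46 CPM in DMSO (SD, n = 2). The summed log2-fold changes were −0.27, −0.31 and −0.18, with adjusted p of 0.26, 0.192 and 0.526.

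Of the acetyl- and methyltransferases, NAT1 and TPMT were tested and did not pass the threshold, beside 9.51%, 8.3% and 0.575% of all tested genes under compounds 4, 5 and 6. With so few genes, the absence of calls is not a result about these enzymes. TPMT, which methylates thiopurine drugs, had 19.2 and 21.4 CPM in DMSO, 19.1 and 12.6 under compound 4, 17.7 and 13.5 under compound 5, and 20.5 and 21.4 under compound 6. Compounds 4 and 5 lay below both DMSO libraries and compound 6 overlapped them. The log2-fold changes were −0.36 ± 0.21 (adjusted p = 0.295), −0.38 ± 0.21 (adjusted p = 0.245) and 0.05 ± 0.21 (adjusted p = 0.927). NAT1, which acetylates arylamines, ranged from 1.93 to 4.07 CPM, with log2-fold changes of −0.16, −0.53 and 0.02.

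The epoxide hydrolases had log2-fold changes of opposite sign under compound 5. EPHX2 (ENSG00000120915, chromosome 8), the soluble enzyme that opens fatty acid epoxides, had 18.7 and 17.4 CPM in DMSO, 13.5 and 12.3 under compound 4, 8.89 and 9.45 under compound 5, and 19.5 and 11.9 under compound 6. The compound 5 libraries were the lowest, compound 4 lay between them and DMSO, and compound 6 spanned the DMSO values. Compound 5 lowered EPHX2 with a log2-fold change of −0.97 ± 0.22 (adjusted p = 0.028, 1.96-fold lower). Under compound 4 it was −0.48 ± 0.21 (adjusted p = 0.178) and under compound 6 −0.20 ± 0.21 (adjusted p = 0.657). The call held with DESeq2 (adjusted p = 0.00509) and in the fit of 4 libraries (adjusted p = 0.021), and was lost without replicate 1 of compound 5 (adjusted p = 0.146) or either DMSO library (adjusted p = 0.13 and 0.137), with the log2-fold change between −1.02 and −0.93 in these.

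EPHX1 (ENSG00000143819, chromosome 1, 225810092 to 225845563, plus strand), the microsomal enzyme that opens epoxides of drugs and aromatic hydrocarbons, had 156 and 143 CPM in DMSO, 198 and 151 under compound 4, 207 and 189.4 under compound 5, and 142 and 138 under compound 6. Both compound 5 libraries stood above both DMSO libraries, and both compound 6 libraries below. The log2-fold change was 0.22 ± 0.13 under compound 4 (adjusted p = 0.317) and −0.10 ± 0.13 under compound 6 (adjusted p = 0.739). Under compound 5 it was 0.40 ± 0.13, with an adjusted p of 0.0897 and of 0.0464 with the replicate block. Exons of EPHX1 overlap TMEM63A on the opposite strand in GENCODE 29, and since it is not stated whether counting used the strand that the directional kit marks, its values are uncertain in that respect.

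The EPHX1 stretch from 200 to 51 bases before the start is shown because its window held motifs of both xenobiotic sensors named below, NRF2 and AHR. UGT1A6 also had both motifs among its promoter entries. The EPHX1 stretch lies at chr1:225825154-225825303 on the plus strand of GRCh38.p14 (RefSeq). That is inside the gene span given above, so the start used is not the first base of that span. Capitals mark GCGTG on the forward strand at 143 to 139 bases before the start, its reverse complement at 103 to 99 bases, and TGACNNNGC, the core of the antioxidant response element bound by NRF2, at 78 to 70 bases.
EPHX1: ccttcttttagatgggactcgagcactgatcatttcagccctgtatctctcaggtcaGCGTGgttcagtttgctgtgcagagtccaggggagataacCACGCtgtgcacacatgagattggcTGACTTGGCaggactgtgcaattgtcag
TGACNNNGC was found on either strand in a promoter entry of 9 of the 28 enzymes and in 10.9% of all 35116 single entries. An enzyme could have several entries, so the shares are not of like units. No motif here says that a factor was bound.

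**Figure D3:**
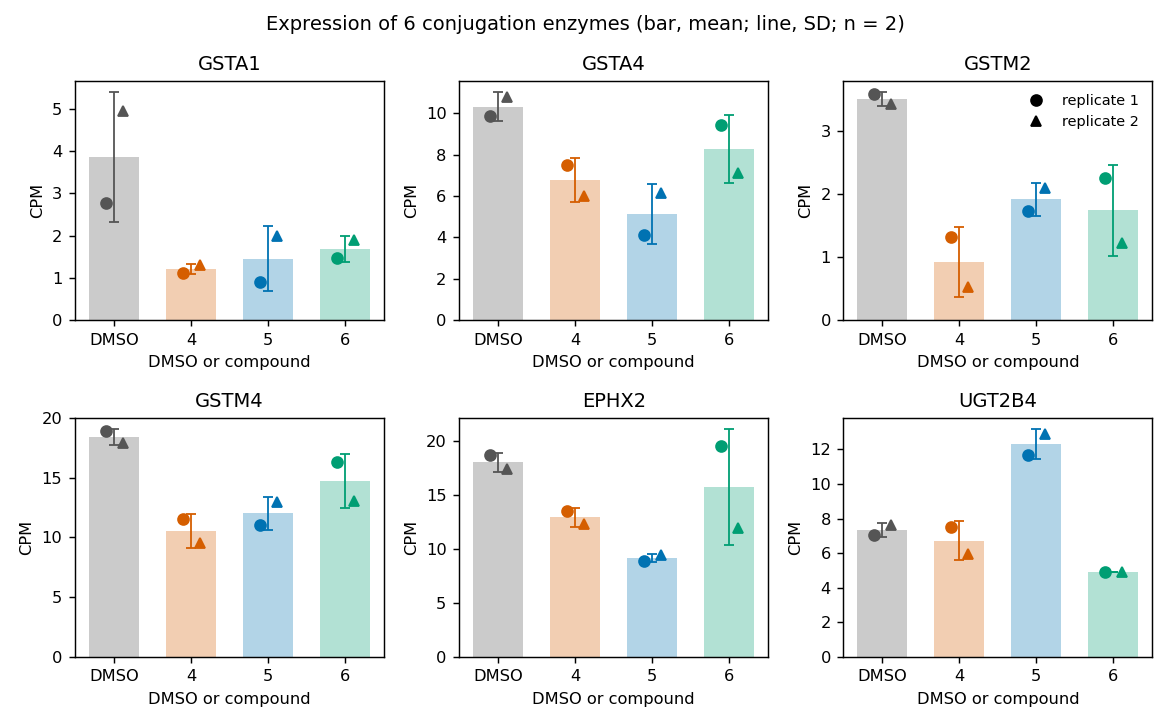
Expression in CPM of the 6 conjugation enzymes past the threshold against DMSO under compound 4 or 5, by group. Bars are means, lines are SD (n = 2), circles are replicate 1 and triangles replicate 2. GSTA1, GSTM2 and GSTM4 were lowest on average under compound 4, GSTA4 and EPHX2 were lowest under compound 5, and UGT2B4 was highest under compound 5 at 11.7 and 12.9 CPM.

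Between the compounds, 3 pairs were compared over the 25 tested enzymes, with p-values adjusted over all 13400 genes. Compounds 4 and 5 differed in 0 enzymes (0.313% of all genes), with 7 at an unadjusted p under 0.05 (16.2% of all genes). Compounds 4 and 6, which differ by tert-butyl against cyclohexyl groups, differed in 0 enzymes (0% of all genes), with 4 at an unadjusted p under 0.05 (7.05% of all genes). DESeq2 also called 0 in both pairs. Compounds 6 and 5 differed in UGT2B4 alone (1.03% of all genes), with 8 enzymes at an unadjusted p under 0.05 (18.5% of all genes), and DESeq2 called EPHX1 as well.

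UGT2B4 was 2.50-fold lower under compound 6 than under compound 5, a log2 difference of −1.32 ± 0.19 with a 95% interval of −1.76 to −0.89 (adjusted p = 0.0158). With the 7 UGT2B genes summed it was −0.69 (adjusted p = 0.0396). The call of UGT2B4 alone was lost when any library of these 2 groups was left out, with adjusted p between 0.0546 and 0.168 and a log2 difference between −1.39 and −1.25. Between compounds 4 and 5 its log2 difference was −0.88 (95% interval −1.29 to −0.47, adjusted p = 0.0874), and between compounds 4 and 6 it was 0.44 (95% interval −0.01 to 0.90, adjusted p = 0.711). The GSTs lowered by compound 4 did not differ past the threshold from compound 6. The log2 difference of compound 4 from compound 6 was −0.47 for GSTA1 (95% interval −1.58 to 0.64), −0.95 for GSTM2 (−2.06 to 0.17) and −0.48 for GSTM4 (−0.88 to −0.08), with adjusted p of 0.887, 0.753 and 0.587. For compound 4 against compound 5 these were −0.30 (−1.38 to 0.78), −1.10 (−2.16 to −0.03) and −0.20 (−0.60 to 0.20), with adjusted p of 0.799, 0.298 and 0.598. A p that misses the threshold does not show that the compounds act alike on these genes. For EPHX2 the log2 difference of compound 6 from compound 5 was 0.77 (95% interval 0.29 to 1.26, adjusted p = 0.111).

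Genes that supply the cosubstrates of conjugation were followed with a list of 31, of which 29 were tested. Compound 4 raised 4 and lowered 2 of them, compound 5 raised 6 and lowered 2, and compound 6 raised 1. These were 20.7%, 27.6% and 3.45% of the 29, beside 9.51%, 8.3% and 0.575% of all tested genes. Since the list was chosen with earlier results of these data known, its shares do not test for enrichment. The median log2-fold change of the 29 was −0.04, −0.04 and 0.01. In glutathione supply, 6 genes were tested, of which compound 4 raised 3, compound 5 raised 4 and compound 6 raised 1.

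SLC7A11, the cystine carrier that feeds glutathione synthesis, had 64.9 and 56.6 CPM in DMSO, 109 and 158 under compound 4, 258 and 137 under compound 5, and 168 and 218 under compound 6. All treated libraries lay above both DMSO libraries. Its log2-fold change was 1.14 ± 0.28 (adjusted p = 0.0366), 1.70 ± 0.29 (adjusted p = 0.0114) and 1.67 ± 0.29 (adjusted p = 0.0478, and 0.0578 with the replicate block). GCLC and GCLM, the subunits of the rate-limiting ligase of glutathione synthesis, rose under compound 4 (0.97 and 1.10, adjusted p of 0.0189 and 0.0109) and compound 5 (1.21 and 1.21, adjusted p of 0.0111 and 0.00958). Under compound 6 their log2-fold changes were 0.84 and 0.99 (adjusted p of 0.0794 and 0.0541). GSR, which regenerates glutathione, rose under compound 5 (0.55, adjusted p = 0.0155), whereas the synthetase GSS had −0.04, −0.38 and 0.10 and did not pass, and both were singled out after their values were seen. These calls for GCLC, GCLM and SLC7A11 were lost without either DMSO library, and without replicate 2 of compound 4 or replicate 1 of compound 5 for the respective compound. The call of SLC7A11 under compound 6 was also lost without either compound 6 library.

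In UDP-glucuronic acid supply 1 gene passed the threshold. UGDH, which makes UDP-glucuronic acid, had 546 and 552 CPM in DMSO and 728 and 695 under compound 5, where it rose (0.37 ± 0.09, adjusted p = 0.0359), and 0 of the other 4 genes of that route passed under any compound. Of 6 tested PAPS genes and 6 S-adenosylmethionine genes, 0 passed under any compound. In acyl-CoA supply, where 6 genes were tested, compounds 4 and 5 each raised 1 and lowered 2. ACLY fell under compound 4 (−0.89, adjusted p = 0.00281) and compound 5 (−0.71, adjusted p = 0.0062), as did ACSS2 (−1.32, adjusted p = 0.00411, and −1.73, adjusted p = 0.00193). Both make acetyl-CoA, and both also serve lipid synthesis. COASY, which completes coenzyme A, rose under compound 4 (0.38, adjusted p = 0.0345) and compound 5 (0.49, adjusted p = 0.017).

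**Figure D4:**
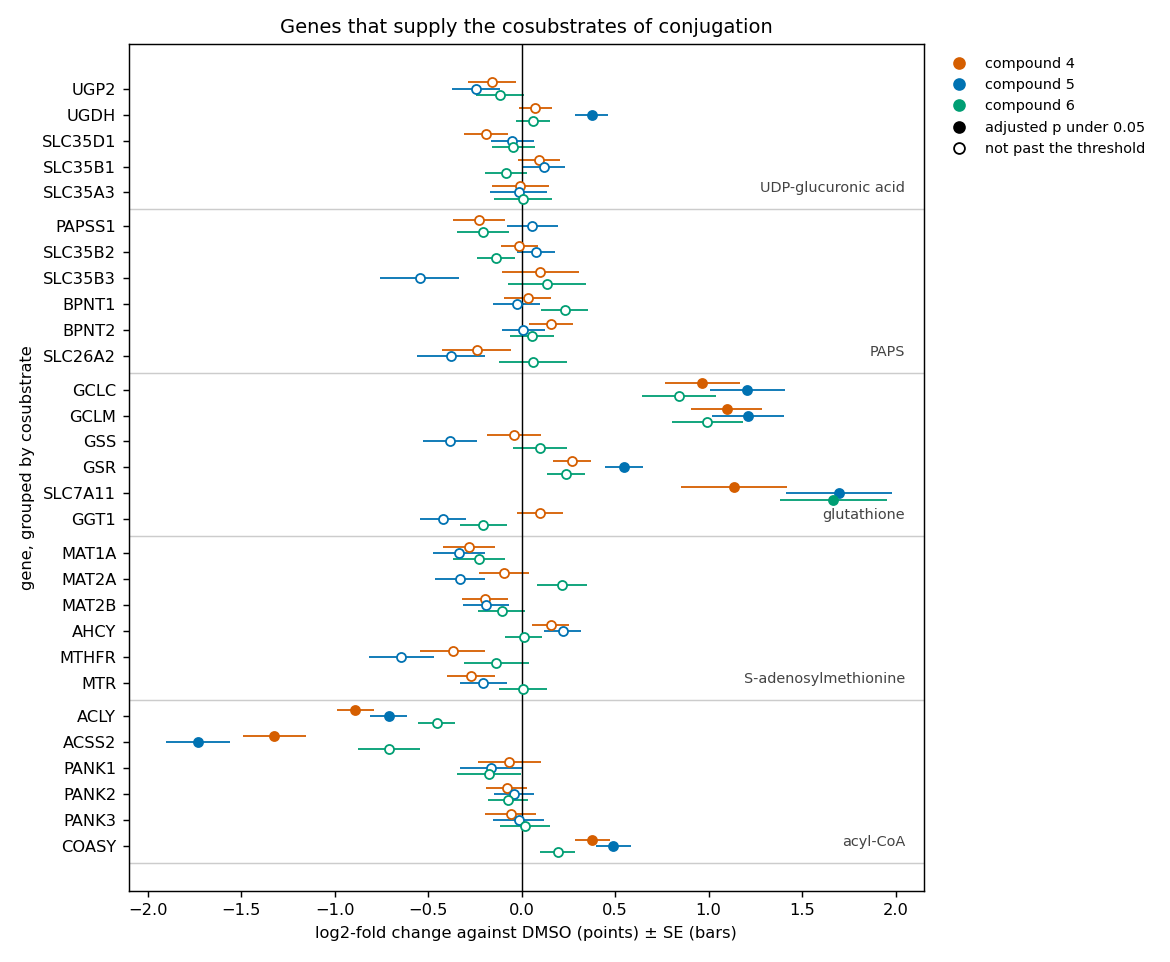
Log2-fold change against DMSO of the 29 tested genes that supply UDP-glucuronic acid, PAPS, glutathione, S-adenosylmethionine and acyl-CoA, with bars of ± 1 SE. Filled points passed an adjusted p of 0.05. The filled points above 0 were mainly GCLC, GCLM, GSR and SLC7A11 of the glutathione route, and those below 0 were ACLY and ACSS2.

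Of 43 further conjugation enzymes that are not among the 36, 42 were in the table and 16 were tested, while 15 had no count in any library. Compound 4 lowered UGT2A3, METTL7A, METTL7B and GAMT and raised BAAT, which joins bile acids to amino acids. Compound 5 lowered AS3MT and METTL7A, and compound 6 changed 0 of 16. The calls made up 31.2%, 12.5% and 0.0% of the 16, against 9.51%, 8.3% and 0.575% of all tested genes. This list too was chosen with earlier results of these data known, so the shares do not test for enrichment. METTL7A, a thiol methyltransferase, had 196 and 199 CPM in DMSO, 109.6 and 76.2 under compound 4, 88.6 and 98.3 under compound 5, and 143 and 110.1 under compound 6. Every treated library lay below both DMSO libraries, with log2-fold changes of −1.09 (adjusted p = 0.0085), −1.08 (adjusted p = 0.0107) and −0.64 (adjusted p = 0.11). UGT2A3 fell under compound 4 by a log2-fold change of −0.57 (adjusted p = 0.0318) and METTL7B by −0.91 (adjusted p = 0.0345), and AS3MT, the arsenic methyltransferase, fell under compound 5 by −0.87 (adjusted p = 0.0227). BAAT (0.64) and GAMT (−0.86) were named after their values were seen. The median of the 16 was −0.27, −0.56 and −0.27. Of 5 genes that remove glucuronic acid or sulfate, 0 passed under any compound.

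Genes that control conjugation enzymes, and their best-known targets, were followed with a list of 22, of which 19 were tested. Compound 4 raised 7 and lowered 1, compound 5 raised 7, and compound 6 raised 1. These were 42.1%, 36.8% and 5.26% of the 19, beside 9.51%, 8.3% and 0.575% of all tested genes. The list was chosen with earlier results of these data known, so its shares do not test for enrichment. CYP1A1, the classical target of the aryl hydrocarbon receptor AHR, had 5.94 and 4.69 CPM in DMSO, 59.5 and 69.1 under compound 4, 10.8 and 9.05 under compound 5, and 15.5 and 23.2 under compound 6. No group overlapped another. Its log2-fold change was 3.60 ± 0.22 (adjusted p = 8.78e-05), 0.90 ± 0.24 (adjusted p = 0.0476, and 0.0513 with the replicate block) and 1.87 ± 0.23 (adjusted p = 0.0233). TIPARP, another AHR target, had 0.10, 0.23 and 0.06 and did not pass.

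Of the targets of NRF2, the sensor of electrophiles, TXNRD1 and SRXN1 rose under compound 4 (0.98 and 1.12) and compound 5 (1.19 and 1.30), with adjusted p between 0.00847 and 0.0169. HMOX1 rose under compound 4 (0.65, adjusted p = 0.0222), and NQO1, which also answers to AHR, had log2-fold changes of 0.01, 0.20 and 0.01 and did not pass. CYP2B6, a target of the receptors PXR and CAR, rose under compound 4 (1.48, adjusted p = 0.0278) and compound 5 (1.43, adjusted p = 0.0352), and had 1.62 under compound 6 (adjusted p = 0.0581). Of the regulators themselves, ESRRA rose under compounds 4 and 5 (0.60 and 0.59, adjusted p of 0.0106 and 0.0125), AHR rose under compound 5 (0.73, adjusted p = 0.0463) and had 0.65 under compound 4 (adjusted p = 0.0605, and 0.0411 with the replicate block). NR1H4, the bile acid receptor, fell under compound 4 (−0.74, adjusted p = 0.0233). KEAP1, the inhibitor of NRF2, rose under compounds 4 and 5 (0.39 and 0.41, adjusted p of 0.0402 and 0.0373) and was named after its values were seen.

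Of the calls against DMSO printed for genes that are not among the 36 enzymes, 33 were tested without each library, and 29 of them were lost without at least 1 DMSO library, with the highest adjusted p of each between 0.0716 and 0.437. ACLY, ACSS2 and CYP1A1 under compound 4 and ACSS2 under compound 5 stayed past the threshold when any library was left out. The calls of GSR, KEAP1, BAAT and GAMT were not computed under any alternative.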

How the data were processed

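RNA-seq of 8 libraries in 4 groups of 2 was used. According to the study's methods and the submitters' processing notes, the authors checked the reads with FastQC 0.12.0, quantified them with Salmon 1.5.0 on a GENCODE transcript index of GRCh38, and summarized them to genes with tximeta. They deposited estimated counts as whole numbers, without normalization, and tested them with DESeq2 1.38.3. Libraries were made with a directional kit, which marks the strand, but how the strand was used in counting is not given in the sources used here, and counts of overlapping or near-identical genes are uncertain.

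Statistics were computed with edgeR 4.0.16 (R 4.3.3). Libraries were scaled by TMM factors, low genes were removed by filterByExpr (minimum count 10), and the quasi-likelihood test was fitted to all 8 libraries without a block. SE is the absolute log2-fold change divided by the root of the F statistic, and 95% intervals use the t distribution with the fit's degrees of freedom. Depth was between 9791659 and 17814595 counts per library. The common coefficient of variation of expression between replicates estimated by edgeR, which leaves out counting error, was 0.122. With 2 against 2 libraries no permutation test can pass 0.05, so none was run. The edgeR fit was tested on simulated counts.

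Transcript lengths, overlaps and positions are from GENCODE 29, sequence sharing was counted as 31-base stretches of its transcripts (the authors' index was of a later GENCODE release, so the transcripts quantified can differ), and promoters are from RefSeq (GRCh38.p14), where SULT1A1, SULT1A2, NAT1, NAT2, MGST2, UGT2B4, NNMT and EPHX2 had no entry. The members and lists were chosen with earlier results of these data known. Enzymes were named in full if past the threshold in a comparison, if the most abundant of their family, or if at an unadjusted p under 0.05 the same way under all 3 compounds, and every other tested enzyme was given in brief. Other listed genes were named if past the threshold, at most 3 per subgroup, along with all tested marker targets. The day in the labels gives the pairing of replicates. Across genes, the deviations of same-day libraries correlated between −0.149 and 0.236 over 6 pairs of groups, and the fit with the replicate block was an alternative. Other alternatives were DESeq2 1.42.0, its size factors, a fit of the 4 libraries compared, other count filters, sums over related genes and leaving out each library. Python 3.11.15 was used for tables and plots.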

Additional observations from a re-analysis of the deposited data

How the results depend on the processing

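The fit with no filter on low counts took in all 36 enzymes, so the 11 with the fewest read pairs stood beside the 25 of the main fit. Its values are therefore not of the same set. It gave 5 enzymes past the threshold for compound 4, 8 for compound 5 and 2 for compound 6. Between compounds it gave 2 for compounds 4 and 5, 1 for compounds 4 and 6 and 4 for compounds 6 and 5. The median over the 36 for compound 5 was −0.061. Compound 5 had 5 enzymes with the replicate block, 1 in the fit of 4 libraries and 5 with at least 10 counts in every library. DESeq2 gave 2 for compounds 6 and 5. For these and the following alternatives the share of all tested genes called was not computed, so the counts have no background beside them. Leaving out 1 library gave 0 to 4 enzymes for compounds 4 and 5 and 0 to 1 for compounds 6 and 5. Leaving out a library or a replicate number gave medians of −0.36 to 0.08, −0.37 to −0.17 and −0.31 to −0.067 for compounds 4, 5 and 6. The other genes of conjugation, 11, 10 and 1 past the threshold of 50, ran from 2 to 12, 1 to 16 and 0 to 6 without 1 library. For compound 5 they were 19 with no filter, a fit that also took in listed genes which the filter had removed. For compound 6 they were 7 with DESeq2, 0 with the replicate block, 9 in the fit of 4 libraries, 0 with DESeq2's size factors, 9 with no filter and 2 with at least 10 counts in every library. Of the values not past the threshold, 15 turned sign under an alternative, in UGT2B4, UGT2B7, SULT1A1, GSTO1, MGST1, TPMT, EPHX2, NQO1, TIPARP and NR1H4. For UGT2B7 and SULT1A1 the alternatives included sums over related genes, which are not values of these genes alone. The sum over 7 UGT2B genes had −0.035 for compound 4 and −0.22 for compound 6. That over SULT1A1 to SULT1A4 had −0.18 for compound 6. Leaving out a library or a replicate number gave −0.12 to 0.36 for GSTO1 and −0.34 to 0.088 for MGST1 under compound 4, and −0.60 to 0.12 for EPHX2 and −0.39 to 0.0555 for NR1H4 under compound 6. Of 102 gene values, 42 were past the threshold, 0 of these changed sign under any alternative run, and 5 stayed past it in every alternative with a test. Among these 102 values the replicate block changed no call other than the 5 given with their results, for GSTA1, EPHX1, AHR, CYP1A1 and SLC7A11. Leaving out both libraries of a replicate number leaves 1 library per group, so values without a test were computed. The cause of these changes was not tested, and the enzymes at a few CPM had wide errors at this depth.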
